A study of Mus musculus with 6 samples.

Results

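Stereocilia are the actin-filled projections of the hair bundle, the mechanosensory organelle on top of each hair cell (HC) of the cochlea. The 10 genes described here, Espn, Espnl, Fscn2, Pls1, Xirp2, Eps8, Eps8l2, Myo15, Myo3a and Grxcr1, encode proteins that cross-link the actin core of the stereocilium or set its length. They were looked up in the count table by gene symbol, and all 10 were among the 24421 symbols of the count table and passed the filter on low counts, which left 15988 genes for testing. RNA was sequenced from cochleae of wild-type mice, dissected at postnatal day 2 and kept in culture as explants. The control group and the neomycin group held 3 samples each, and every sample was a pool of 6 to 8 cochleae. In the neomycin group the explants had 12 h of culture and then neomycin, an aminoglycoside toxic to HCs, at 1 mM over 6 h. After this came 5 days of culture in the presence of 10 μM EdU, a thymidine analog that marks new DNA. The culture times and the EdU are recorded alike for the control samples. The treatment label of each sample reads control or neomycin, but the culture text attached to all 6 samples names the 1 mM neomycin step, so the control group is taken from the treatment label as explants without neomycin. Total counts per sample ran from 50471116 to 66068108, and no replicate was a copy of another. Nothing in the labels says whether the samples of a group came from separate litters or culture days, so the p-values measure the spread between these samples only. According to the methods of the study, the anlage of the stria, the modiolus and the tectorial membrane had been dissected away, and what remained, HCs, supporting cells (SCs) and other cells together, was sequenced in bulk.

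In a stereocilium, parallel actin filaments are bundled by cross-linkers, namely the espins (Espn, Espnl), fascin 2 (Fscn2) and plastin 1 (Pls1), while XIRP2 is an actin-binding protein known for maintenance of the core. The filaments grow at their tips, where the motor myosin XVa (Myo15) delivers EPS8, an actin capping and bundling protein, and where the motor myosin IIIa (Myo3a) carries espins. EPS8L2 is a relative of EPS8 that also sits at stereocilia tips, and GRXCR1 is a glutaredoxin-like protein needed for the normal growth and width of stereocilia. Loss of any one of several of these proteins leaves short, thin or degenerating stereocilia and deafness in mice and in people.

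After neomycin, 7 of the 10 genes were lower by both criteria used for a call, a Benjamini-Hochberg adjusted p-value under 0.05 in edgeR's quasi-likelihood test and a change over 1.5-fold, and 0 were higher. Of all 15988 tested genes, 1055 (6.6%) were called lower by this rule and 358 were called higher. An adjusted p-value under 0.05 in the lower direction, without the fold criterion, was met by 8 of the 10 genes beside 16.1% of all tested genes. The neomycin samples all lay under the control samples, without overlap, for 8 of the 10 genes and for 22.5% of all tested genes. The median log2 fold change was -0.90 over the 10 genes and -0.00 over all tested genes. The 3 genes not called were Pls1, Eps8 and Eps8l2, and the 7 called genes ranged from Xirp2, at 64.0% of its control level, to Myo3a, at 9.89%. In bulk samples, fewer cells of a type and less RNA per cell cannot be told apart, and this holds for every level given here.

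**Figure D1:**
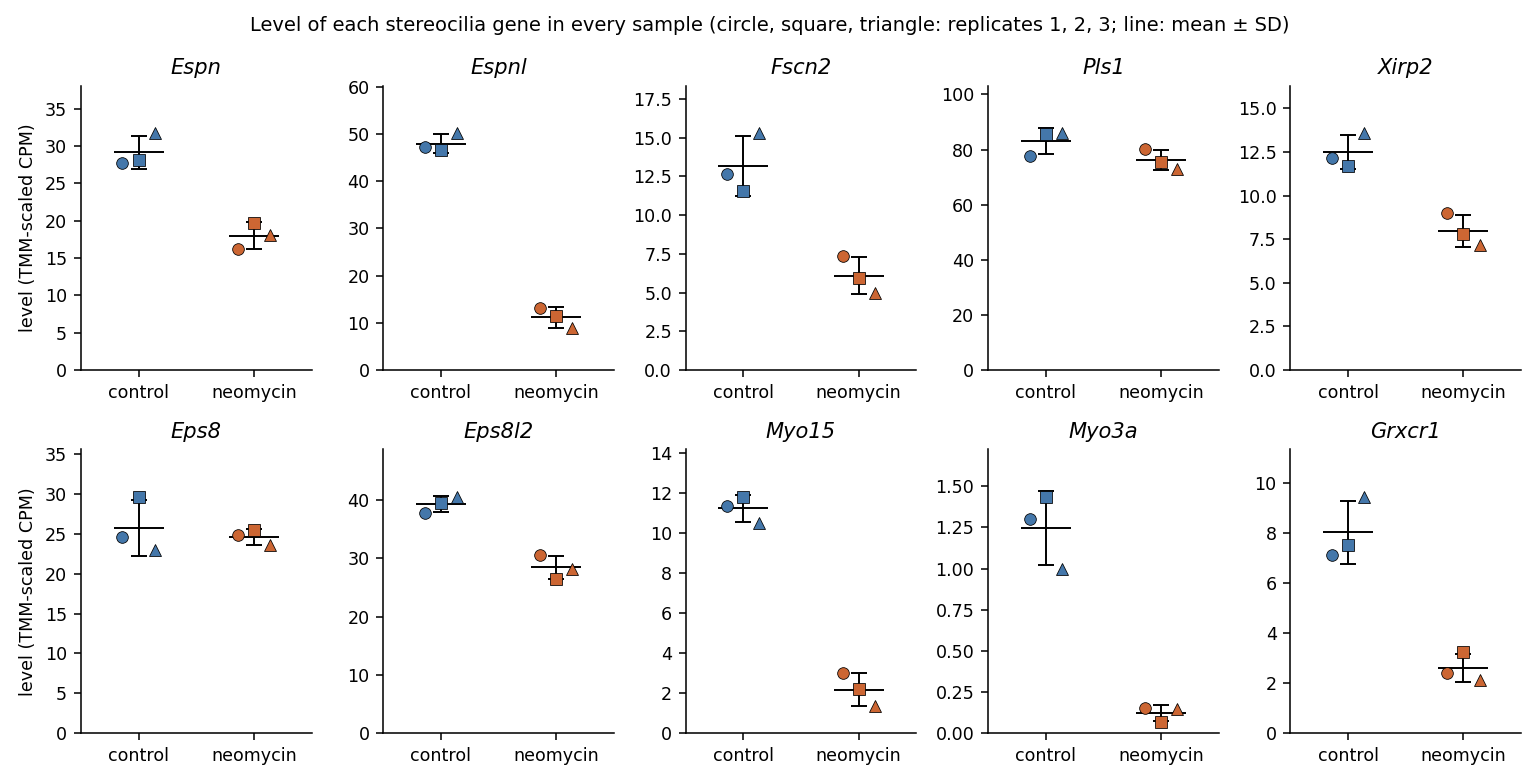
Level of each of the 10 stereocilia genes in CPM (y axis, counts scaled with TMM to a common library size, each panel from 0) in the 3 control samples (blue) and the 3 neomycin samples (orange). Circles, squares and triangles are replicates 1, 2 and 3, and lines give the mean ± SD. The groups overlap for Pls1 and Eps8 and are apart for the other 8 genes.

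Where the transcripts begin is shown for the 4 called genes that held a match to a motif searched. The windows of the called genes Fscn2, Xirp2 and Myo3a held none and are not shown. RefSeq windows (GRCm38.p6, 250 bases before an annotated start) were found for 9 of the 10 genes, Eps8 being the gene without one, and gave 11 windows because Espn has several starts. The motifs searched on both strands were CAGCTG and CAGATG, forms of the E-box that basic helix-loop-helix factors such as ATOH1 read, and ATTAAT, a core read by POU-homeodomain factors such as POU4F3. The motifs do not overlap one another in the windows below, which run 5′ to 3′ on the strand of the gene with the matches in capitals.
Espn, inner start, chr4:152128926-152129175, minus strand: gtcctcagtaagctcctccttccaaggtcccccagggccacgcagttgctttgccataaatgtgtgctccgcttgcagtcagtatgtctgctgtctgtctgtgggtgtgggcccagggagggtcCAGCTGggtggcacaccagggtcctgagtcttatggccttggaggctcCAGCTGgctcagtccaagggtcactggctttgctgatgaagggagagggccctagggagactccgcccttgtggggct
Myo15, chr11:60469089-60469338, plus strand: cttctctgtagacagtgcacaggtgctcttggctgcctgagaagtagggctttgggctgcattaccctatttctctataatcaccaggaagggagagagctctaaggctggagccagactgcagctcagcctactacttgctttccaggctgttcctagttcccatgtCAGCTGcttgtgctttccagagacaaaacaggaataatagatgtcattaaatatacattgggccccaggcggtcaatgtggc
Espnl, chr1:91321825-91322074, plus strand: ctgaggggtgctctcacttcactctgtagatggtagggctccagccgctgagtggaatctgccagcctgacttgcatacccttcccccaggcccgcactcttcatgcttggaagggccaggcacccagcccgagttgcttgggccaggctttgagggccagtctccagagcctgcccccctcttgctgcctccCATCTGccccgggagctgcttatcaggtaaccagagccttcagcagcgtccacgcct
Grxcr1, chr5:68031585-68031834, plus strand: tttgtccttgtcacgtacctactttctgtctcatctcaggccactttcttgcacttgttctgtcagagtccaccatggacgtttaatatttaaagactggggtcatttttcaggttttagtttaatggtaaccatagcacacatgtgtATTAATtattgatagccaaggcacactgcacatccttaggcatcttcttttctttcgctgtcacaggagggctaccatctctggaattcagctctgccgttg
The Espn window lies inside the gene, and all 4 windows hold 0 exon bases. CAGCTG was found 126 and 78 bases before the inner Espn start, in a further Espn window 201 bases before the outermost start, and 82 bases before the Myo15 start. By windows this was 3 of the 11, from 2 genes of the 9, beside 13.0% of all 32851 RefSeq promoter windows of this length. CAGATG, here as its reverse complement, was found 57 bases before the Espnl start, in 1 of the 11 windows, beside 14.4% of all windows. ATTAAT was found 102 bases before the Grxcr1 start, in 1 of the 11 windows, beside 4.4% of all windows. No motif was shared by all called genes, and a match describes the letters of the window only.

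Of the 5 genes for proteins of the core, 4 were called lower and Pls1 was not. Levels are given as CPM, counts scaled with TMM to a common library size. Espn and Espnl are related genes for actin-bundling espins. Espn (chr4:152120331-152152371, minus strand, mm10) stood at 27.8, 28.1 and 31.7 CPM in control replicates 1, 2 and 3, and at 16.2, 19.7 and 18.0 CPM in the neomycin replicates. The groups did not overlap. Its mean went from 29.2 ± 2.20 to 18.0 ± 1.80 CPM (SD, n = 3 each), a log2 fold change of -0.70 (SE 0.10, edgeR adjusted p = 0.000443). Espn lost the fold criterion when the trend of change with exon length was removed, at -0.56.

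Espnl, which encodes espin-like protein (chr1:91322075-91348306, plus strand), had the largest loss in CPM of the 10 genes. It was measured at 47.2, 46.6 and 50.2 CPM in the control samples and at 13.2, 11.4 and 8.84 CPM after neomycin. Its control values lay close together, and every neomycin sample held less than each control sample. The mean fell from 48.0 ± 1.93 to 11.1 ± 2.18 CPM (SD, n = 3 each), and the log2 fold change was -2.11 (SE 0.12, edgeR adjusted p = 3.77e-07), which left 23.2% of the control level (95% interval 19.3 to 27.9%).

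Fscn2 and Pls1 encode cross-linkers of different families. Fscn2 (chr11:120361534-120368168, plus strand) was at 12.6, 11.6 and 15.3 CPM in control and at 7.36, 5.95 and 4.95 CPM after neomycin, with no overlap. The log2 fold change of Fscn2 was -1.11 (SE 0.16, edgeR adjusted p = 0.000448), leaving 46.3% of control (95% interval 36.5 to 58.7%). Pls1 (chr9:95752642-95845311, minus strand), which also serves microvilli of other epithelia, behaved differently. Its control samples held 77.6, 85.6 and 85.9 CPM and its neomycin samples 80.2, 75.5 and 73.1 CPM. Control 1 lay under neomycin 1, so the groups overlapped. The mean of Pls1 was 83.0 ± 4.73 in control and 76.3 ± 3.60 CPM after neomycin (SD, n = 3 each), with a log2 fold change of -0.12 that did not pass (SE 0.07, edgeR adjusted p = 0.224), and the 95% interval of the level left ran from 82.4 to 102% of control.

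Xirp2 (chr2:67446002-67526614, plus strand) encodes a Xin repeat protein also known from striated muscle. It was at 12.1, 11.7 and 13.6 CPM in control and at 8.98, 7.80 and 7.19 CPM after neomycin, without overlap. The log2 fold change was -0.64 (SE 0.12, edgeR adjusted p = 0.00278), which left 64.0% (95% interval 53.2 to 77.1%). The call rested on the fold criterion: it was lost at -0.57 without control 3 and at -0.57 without neomycin 3, and at -0.44 with the trend on exon length removed, each time with an adjusted p-value still under 0.05. An antisense gene, Gm13601, shares 168 exon bases with Xirp2, and the strand setting of the counting is not given in the sources used here. Of 15 skeletal muscle markers, 9 could be tested and 0 were called. Their summed level was 21.3 to 24.2 CPM in control and 28.8 to 31.8 CPM after neomycin. Most of it came from Des, with means of 16.6 and 23.4 CPM (log2 fold change 0.49, edgeR adjusted p = 0.00221). Myod1 had 0 counts in all 6 samples, while Ckm and Cacna1s had at most 3. The part of muscle RNA in the Xirp2 level was not tested.

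Of the 4 genes for tip proteins and motors, the 2 called lower were those of the motors. Myo15, which encodes myosin XVa, the motor that carries the elongation complex (chr11:60469339-60528369, plus strand), was at 11.3, 11.8 and 10.5 CPM in control and at 2.99, 2.19 and 1.36 CPM after neomycin. The highest neomycin sample held less than the lowest control sample by more than the spread of either group. Its log2 fold change was -2.36 (SE 0.22, edgeR adjusted p = 2.00e-05), which left 19.4% of control (95% interval 14.0 to 27.1%).

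Myo3a (chr2:22227503-22618252, plus strand), for the motor myosin IIIa, was the scarcest of the 10 transcripts. It had 90, 75 and 56 reads in the control samples and 8, 4 and 8 reads in the neomycin samples, which is 1.30, 1.44 and 0.996 CPM against 0.151, 0.0678 and 0.149 CPM. Here too the groups were apart, but few reads stand behind the neomycin values, and the gene passed the filter on low counts through its control samples only. The log2 fold change of -3.34 had the largest standard error of the 10 (0.45, edgeR adjusted p = 0.000316), and the level left was 9.89% with a 95% interval of 5.03 to 19.5%.

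Eps8, for the capping and bundling protein that myosin XVa delivers (chr6:137477245-137654876, minus strand), did not pass the test. Its levels were 24.6, 29.7 and 23.0 CPM in control and 24.8, 25.5 and 23.6 CPM after neomycin. All 3 neomycin samples lay within the control range. The log2 fold change was -0.06 (SE 0.10, edgeR adjusted p = 0.682), the 95% interval of the level left was 82.2 to 112% of control, and the sign turned without control 2 (0.06) and with the trend on exon length removed (0.16). Eps8l2 (chr7:141338880-141363020, plus strand) lay between. It was at 37.8, 39.4 and 40.6 CPM in control and at 30.5, 26.5 and 28.2 CPM after neomycin, with no overlap. The log2 fold change was -0.47 (SE 0.08, edgeR adjusted p = 0.00163), which passed the p-value threshold and not the fold criterion, and the level left was 72.4% (95% interval 64.1 to 81.8%). Eps8l2 shares 1729 exon bases with B230206H07Rik on the other strand, which had 17 to 53 reads per sample.

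Grxcr1 (chr5:68031835-68166398, plus strand), the regulator of stereocilium growth and width, was at 7.12, 7.52 and 9.47 CPM in control and at 2.43, 3.24 and 2.14 CPM after neomycin. The groups did not overlap, and control 3 was the highest sample. The log2 fold change was -1.62 (SE 0.19, edgeR adjusted p = 0.000116), leaving 32.5% of control (95% interval 24.5 to 43.2%). Within the groups, control 3 held the highest value for 7 of the 10 genes and neomycin 3 the lowest for 7 of the 10.

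Related genes were then set against each other. For 7 genes the log2 ratio to a relative was formed within each sample and compared between the groups by an exact 2-sided permutation test, for which 3 against 3 samples allow no p-value under 0.1. The log2 ratio of Espn to Espnl was -0.76, -0.73 and -0.66 in control and 0.29, 0.80 and 1.03 after neomycin. The groups did not overlap, and the ratio shifted 2.68-fold (exact permutation p = 0.1, 0.175 adjusted over the 7 ratios). Per kb of all annotated exons merged, Espnl was at 8.55 to 9.21 and Espn at 3.36 to 3.83 CPM per kb in control. This length can exceed that of the transcripts present, so which gene is higher per kb is uncertain. After neomycin Espnl was still above Espn in replicate 1, at 2.42 against 1.95 CPM per kb, and under it in replicates 2 and 3, at 2.09 against 2.39 and 1.62 against 2.18 CPM per kb. The log2 ratio of Eps8 to Eps8l2 was higher by 0.41 after neomycin, also without overlap (exact permutation p = 0.1, adjusted 0.175).

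The log2 ratio of Fscn2 to Fscn1, for the fascin of many cell types, differed by -0.95, and the Fscn1 levels were 127 ± 3.45 and 113 ± 7.42 CPM (SD, n = 3 each; edgeR adjusted p = 0.0987). The log2 ratio of Myo3a to Myo3b, for the other class III myosin, differed by -2.32, and Myo3b itself went from 6.87 ± 0.210 to 4.14 ± 0.766 CPM (edgeR adjusted p = 0.00606, called lower). Both of these ratios were without overlap between the groups (exact permutation p = 0.1, adjusted 0.175 for each). The ratio of Grxcr1 to Grxcr2, the other glutaredoxin-like gene of the bundle, overlapped between the groups at a difference of 0.38 (exact permutation p = 0.3, adjusted 0.35), which was 0.61 without neomycin 1 and 0.22 without neomycin 3. Grxcr2 went from 18.7 ± 1.83 to 4.78 ± 1.52 CPM (log2 fold change -1.96, edgeR adjusted p = 2.88e-05). Pls1 against Pls3, a plastin of many tissues, differed by -0.03 (exact permutation p = 0.8) and by 0.02 without neomycin 2. Xirp2 against the muscle gene Xirp1, at about 1 CPM in both groups, differed by -0.50 with overlap (exact permutation p = 0.3, adjusted 0.35) and by -0.16 without neomycin 2. Eps8l1 was at 19.0 ± 1.29 and 18.2 ± 1.56 CPM (edgeR adjusted p = 0.651), and the plastin Lcp1 at 14.7 ± 0.538 and 14.1 ± 1.07 CPM (edgeR adjusted p = 0.638). Myo10, for a filopodial motor, had a log2 fold change of -0.31 (edgeR adjusted p = 0.0224) and was not called for its size, Eps8l3 had 0 reads in every sample, and Fscn3 had 1 to 7 reads and was not tested.

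**Figure D2:**
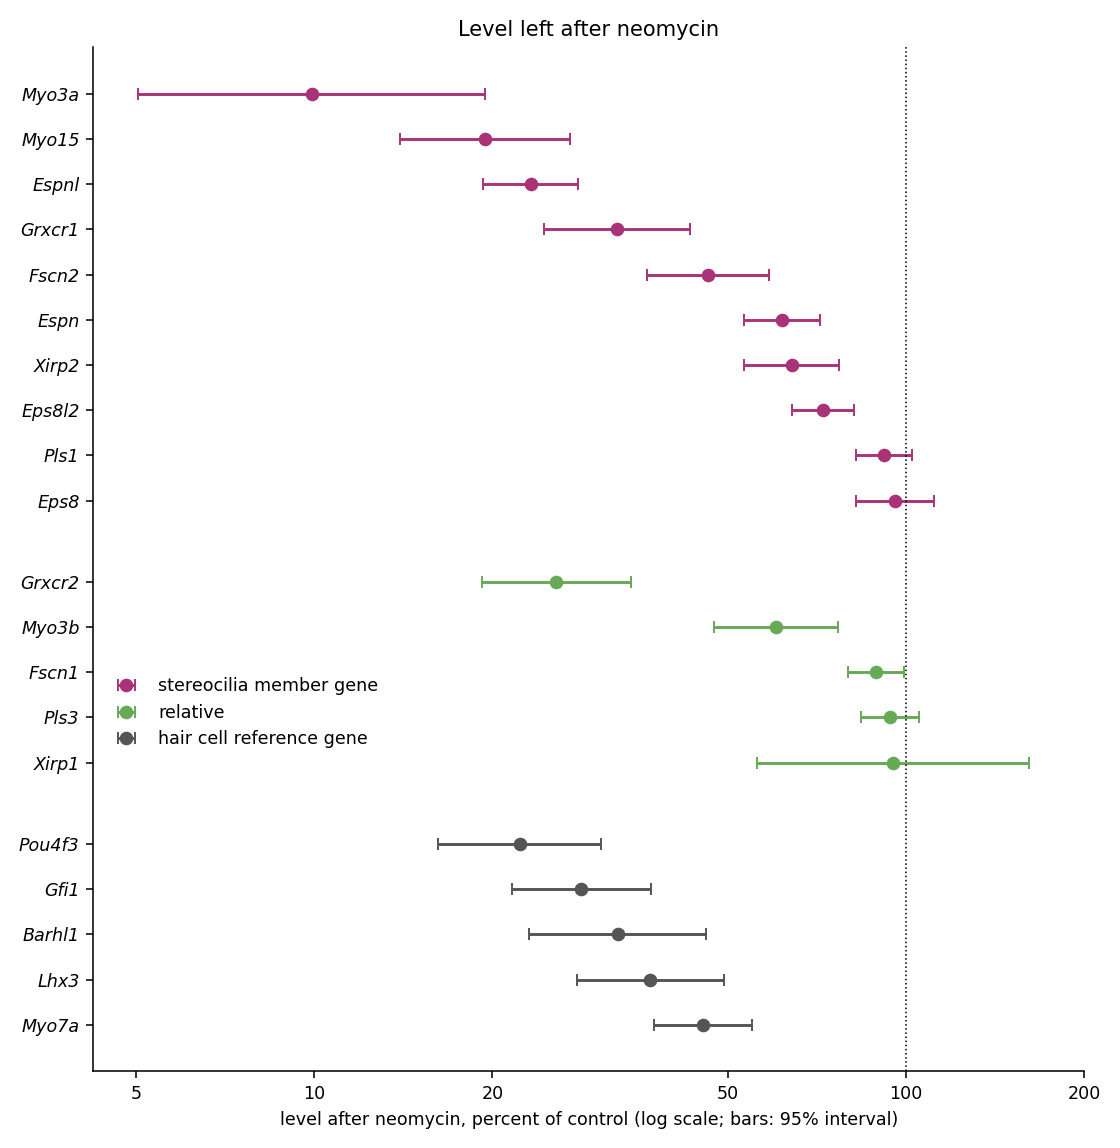
Level after neomycin as a percent of control (log axis, points) with 95% intervals (bars) for the 10 stereocilia genes (purple), 5 of their relatives (green) and 5 HC reference genes (grey). Myo3a, Myo15 and Espnl lie at 9.89 to 23.2%, within or below the range of the reference genes. The points of Fscn2, Espn, Xirp2, Eps8l2, Pls1 and Eps8, at 46.3 to 95.8%, lie above all of them.

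General HC genes were used as a reference for HC transcripts. They were chosen with earlier results of these data known, so their own calls are no independent result. The reference was a list of 5 genes, the transcription factor genes Pou4f3, Gfi1, Barhl1 and Lhx3 and the unconventional myosin gene Myo7a, of which 5 of 5 were called lower. Their levels after neomycin were 22.2% of control for Pou4f3, 28.3% for Gfi1, 32.5% for Barhl1, 36.9% for Lhx3 and 45.3% for Myo7a. For each of the 10 stereocilia genes the log2 ratio to the mean of the 5 was formed within each sample, and the groups did not overlap for 9 of the 10 (exact permutation p = 0.1 for each, the smallest possible with 3 against 3, over 10 ratios compared). The same ratio did not overlap for 93.9% of all tested genes, since the reference itself fell, so the count of 9 says nothing particular to these genes.

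For 3 genes every neomycin sample had a lower ratio than every control sample, which held for 0.532% of all tested genes. The reference fell and was chosen with earlier results known, so few genes can lie under it. The count of 3 beside this share is therefore no support for a trait of these genes. Large falls were not particular to the stereocilia genes: log2 fold changes were -3.16 for Tmc1, -2.69 for Loxhd1 and -3.99 for Slc26a5. In the lists these come from, given below, Pcdh15, Ush1c and Ikzf2 were not called. The ratio of Myo3a rests on 4 to 8 reads per neomycin sample. The log2 ratio of Myo3a was -3.32, -3.16 and -3.85 in control and -4.89, -5.42 and -4.23 after neomycin, a difference of -1.40. The difference was -0.76 for Myo15 and -0.47 for Espnl. With Pou4f3 alone as the reference, it was -0.82 for Myo3a, -0.17 for Myo15 and 0.12 for Espnl, and with Myo7a alone it was -1.93, -1.29 and -0.996. For Grxcr1 the groups overlapped at a difference of 0.03 (exact permutation p = 1.0), which turned to -0.13 without neomycin 2, -0.02 without control 1 and -0.01 without neomycin 3.

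For the other 6 genes every neomycin sample had a higher ratio than every control sample, as for 93.4% of all tested genes. The log2 ratio was higher after neomycin by 0.54 for Fscn2, by 0.96 for Espn, by 1.01 for Xirp2 and by 1.19 for Eps8l2. With Myo7a alone as the reference the value for Fscn2 was 0.01. It was higher by 1.54 for Pls1 and by 1.60 for Eps8, the 2 genes whose own levels overlapped between the groups, so that their ratios carry the fall of the reference.

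**Figure D3:**
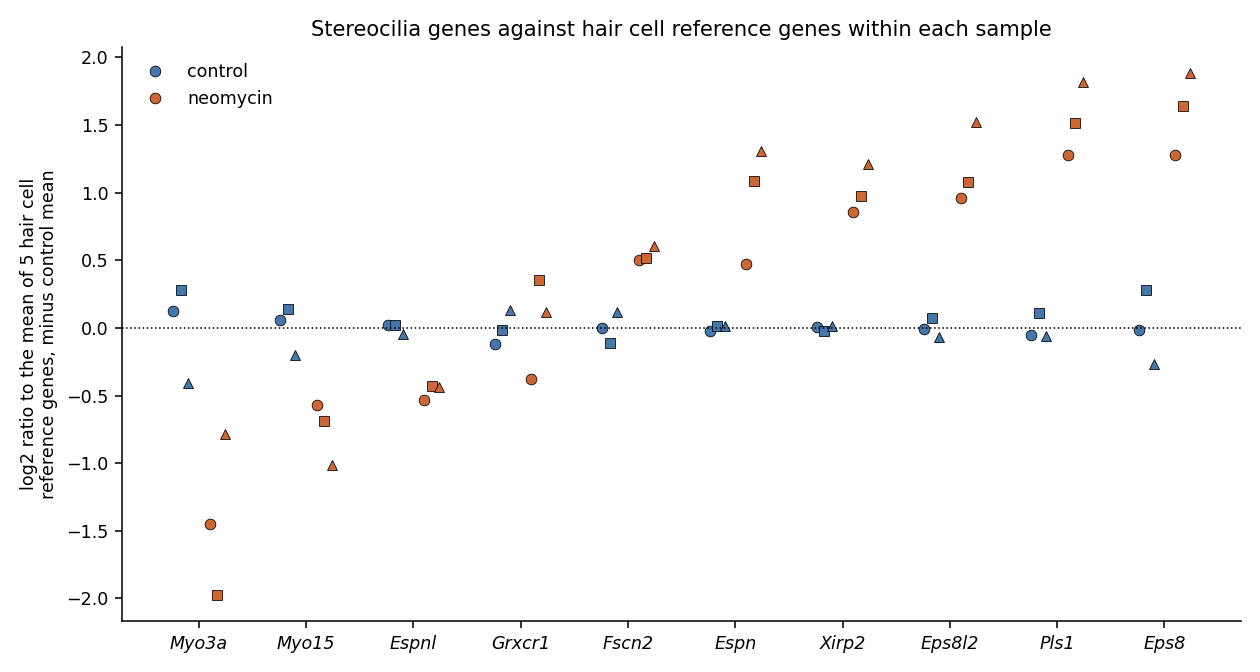
Log2 ratio of each stereocilia gene to the mean of the 5 HC reference genes within each sample, less the control mean (y axis), for control (blue) and neomycin samples (orange), with circles, squares and triangles as replicates 1, 2 and 3. From left to right the neomycin samples go from under the control samples for Myo3a, Myo15 and Espnl, through overlap for Grxcr1, to above them for the other 6 genes, as for 93.4% of all tested genes.

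The make-up of the 10 transcripts followed from these values. Levels were divided by the length of all annotated exons merged, which makes different genes roughly comparable. That length can exceed the transcript present, so genes with several isoforms may be understated. Eps8l2 shares 1729 of its 5377 exon bases with a gene on the other strand. As the strand setting is not given, its level per kb may be understated too. Pls1 led in control with 21.3 CPM per kb. It was followed by Espnl at 8.81, Grxcr1 at 7.50, Eps8l2 at 7.30, Fscn2 at 6.23, Espn at 3.53, Eps8 at 2.08, Xirp2 at 1.04, Myo15 at 0.879 and Myo3a at 0.157 CPM per kb. The ranges of neighbours overlapped from Espnl to Fscn2, so the order within these 4 is not set by the samples. After neomycin Pls1 still led with 19.6 CPM per kb, ahead of Eps8l2 at 5.28. Behind it, Fscn2 at 2.89, Grxcr1 at 2.43, Espn at 2.17, Espnl at 2.04 and Eps8 at 1.99 CPM per kb each overlapped with the next. Xirp2, Myo15 and Myo3a closed the order at 0.667, 0.171 and 0.0154 CPM per kb.

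The summed level of the 10 was 55.7, 58.3 and 62.7 CPM per kb in control and 39.4, 37.6 and 34.8 CPM per kb after neomycin. Pls1 made up 35.2 to 37.8% of this sum in control and 51.7 to 54.0% after neomycin. The share of Espnl was 14.7 to 15.6% in control and 4.66 to 6.14% after neomycin, and that of Grxcr1 went from between 11.9 and 14.1% to between 5.74 and 8.05%. Espn held 5.82 to 6.11% in control and 4.95 to 6.36% after neomycin, so its share overlapped.

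**Figure D4:**
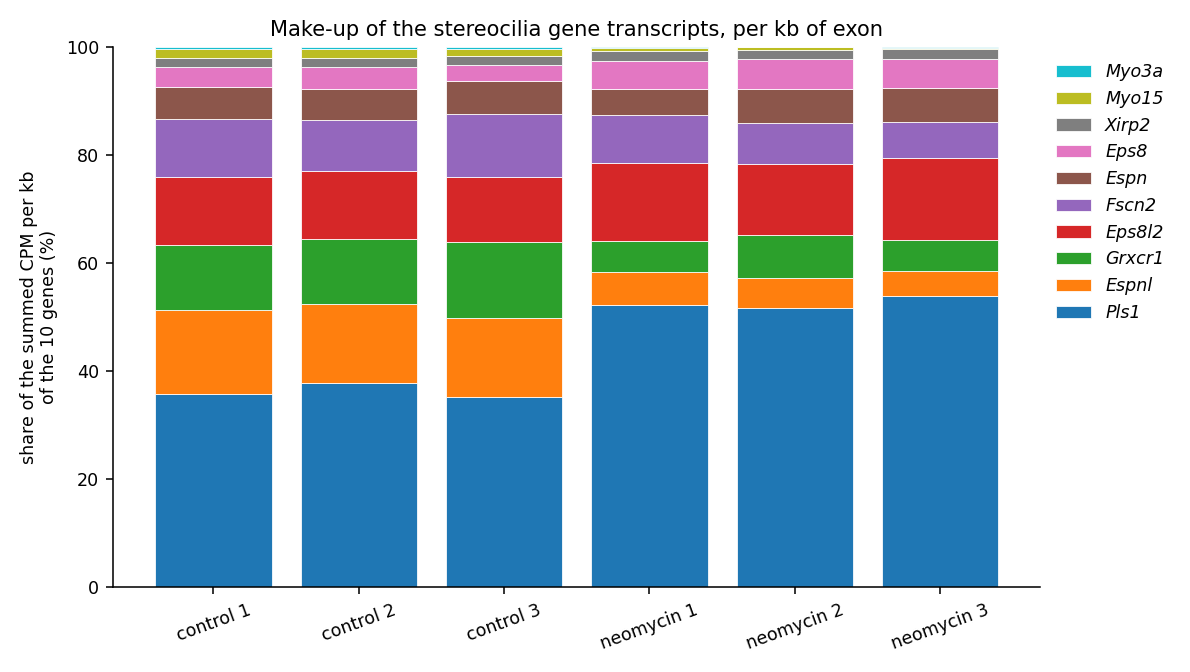
Share of each of the 10 genes (colours) in their summed CPM per kb of exon, in percent (y axis from 0 to 100), for each of the 6 samples. Pls1 fills 35.2 to 37.8% of the bar in the control samples and 51.7 to 54.0% in the neomycin samples, while Espnl takes 14.7 to 15.6% and 4.66 to 6.14%.

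Other genes of the bundle were counted by fixed lists. Each count is to be read beside 6.6% of all 15988 tested genes called lower and 358 of them called higher. Some genes are in several lists: Myo3b and Grxcr2 are also relatives, and Myo7a is also a reference gene. Of 8 partners of the tip complex, 2 were called lower and 0 higher, with a median log2 fold change of -0.16. These were Baiap2l2, for a membrane-binding partner of the tip, at 7.27 ± 0.502 and 2.76 ± 0.358 CPM (log2 fold change -1.40, edgeR adjusted p = 0.000102), and Myo3b. Whrn, for the scaffold whirlin that myosin XVa carries, was at 19.8 ± 0.839 and 14.0 ± 0.968 CPM, lower without reaching 1.5-fold (log2 fold change -0.50, edgeR adjusted p = 0.00271). At the other end of the list, Gnai3, for an inhibitory G protein subunit, had a log2 fold change of 0.05 (edgeR adjusted p = 0.642), and Cdc42, for a small GTPase of the actin cytoskeleton, 0.11 (edgeR adjusted p = 0.295).

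The list of actins and factors of filament turnover held 23 genes. Of these, 1 was called lower and 0 higher, which is near the 6.6% of all tested genes called lower. The median log2 fold change was 0.07, beside -0.00 over all tested genes. The called gene was the one for the formin Diap3, at 4.28 ± 1.10 and 2.32 ± 0.502 CPM (edgeR adjusted p = 0.0164). The actin genes, named in addition to the rule, were at 1041 ± 13.7 and 1132 ± 47.4 CPM for Actb (edgeR adjusted p = 0.293) and at 1748 ± 37.6 and 1831 ± 40.2 CPM for Actg1 (edgeR adjusted p = 0.588). Cap1, for a protein that recycles actin monomers, was lower, at a log2 fold change of -0.25 that did not reach 1.5-fold (edgeR adjusted p = 0.0226). Gsn, for the severing protein gelsolin, was higher by 0.43 on the log2 scale (edgeR adjusted p = 0.00470) and Tmsb4x, for an actin monomer-binding peptide, by 0.35 (edgeR adjusted p = 0.0275), neither reaching 1.5-fold.

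In the list for the taper, the rootlet and the cuticular plate, where the core is anchored, 4 of 12 genes were called lower and 0 higher (median log2 fold change -0.33). The called genes were Grxcr2, Ptprq, for a phosphatase of the taper (log2 fold change -1.34, edgeR adjusted p = 1.35e-05), Dfnb59 and Calb2. Dfnb59, for pejvakin, was at -1.05 (edgeR adjusted p = 0.00232). Calb2, at -0.84 (edgeR adjusted p = 0.000140), encodes a calcium buffer, so its call says nothing on anchoring proteins. Dfnb59 and Calb2 were named after their values were seen. Tprn, for taperin, had a log2 fold change of 0.07 (edgeR adjusted p = 0.559). Of 11 genes for transduction and tip links, 9 were called lower and 0 higher, with a median log2 fold change of -0.90. The channel gene Tmc1 went from 24.9 ± 2.47 to 2.79 ± 0.949 CPM (log2 fold change -3.16, edgeR adjusted p = 3.91e-07), and Loxhd1 had a log2 fold change of -2.69 (edgeR adjusted p = 2.10e-07). The tip link gene Pcdh15, at 13.9 ± 1.87 and 14.0 ± 1.66 CPM (edgeR adjusted p = 0.995), and Ush1c, for the scaffold harmonin (log2 fold change 0.18, edgeR adjusted p = 0.110), were not called. Among genes of the ankle links, Adgrv1 was called lower, at a log2 fold change of -1.70 (edgeR adjusted p = 3.63e-05), and Vezt had 0.19 (edgeR adjusted p = 0.0629).

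Markers of HC types and of other cells moved as follows beside these genes. The counts for all marker lists are to be read beside 6.6% of all 15988 tested genes called lower and 358 of them called higher. Of 5 outer HC markers, 4 were called lower, with Slc26a5, for prestin, at a log2 fold change of -3.99 (edgeR adjusted p = 9.40e-09) and Ocm, for oncomodulin, at -3.41 (edgeR adjusted p = 5.13e-08), and of 5 inner HC markers, 3 were called lower, with Otof, for otoferlin, at -2.34 (edgeR adjusted p = 2.05e-07). Their summed levels were 321 to 463 and 51.0 to 62.4 CPM for the outer HC list, and 248 to 268 and 177 to 187 CPM for the inner HC list, in control and after neomycin. Tbx2 and Brip1 of the inner HC list were not called, and Tbx2 alone gave 148 to 158 and 143 to 159 CPM of these sums. The SC list of 16 genes, most of it from Epyc and Tectb, summed to 11986 to 13917 CPM in control and 15594 to 18433 CPM after neomycin, with 2 called lower and 1 higher. Prox1 was lower at a log2 fold change of -1.46 (edgeR adjusted p = 0.00198), Fgfr3 at -0.66 (edgeR adjusted p = 0.000129), and Tectb was higher at 0.61 (edgeR adjusted p = 0.0138).

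Of 10 tested neuron markers, 4 were called lower (summed level 276 to 349 and 260 to 290 CPM for the 11 listed, with Neurod1 at 0 or 1 count), and of 8 endothelium markers, 6 were called lower (279 to 313 and 266 to 317 CPM, most of it from Emcn, which was not called). The largest falls in these lists were those of the neurofilament gene Nefh, at a log2 fold change of -1.21 (edgeR adjusted p = 0.0187), and of the tight junction gene Cldn5, at -3.40 (edgeR adjusted p = 0.000448). Nefh overlapped between the groups, at 14.1, 7.40 and 4.47 CPM in control and 4.05, 4.61 and 2.59 CPM after neomycin. Nefl, another neurofilament gene, was at -1.15 without overlap (edgeR adjusted p = 0.000919). Of 8 Schwann cell and glia markers, the receptor gene Erbb3 was called lower, at -0.90 (edgeR adjusted p = 0.00164, list sum 561 to 630 and 527 to 554 CPM). Of 10 macrophage markers, 4 were called higher, beside 358 of all 15988 tested genes. Tyrobp, for a signaling adaptor, was at 0.93 (edgeR adjusted p = 0.000792, list sum 94.1 to 124 and 135 to 168 CPM). Of 9 mesenchyme markers, the collagen gene Col1a1 was called lower, at -1.20 (edgeR adjusted p = 0.000469), and the decorin gene Dcn higher, at 0.64 (edgeR adjusted p = 0.000640, list sum 5900 to 6443 and 6321 to 6541 CPM). The part of these cell types in the levels of the stereocilia genes was not tested.

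**Figure D5:**
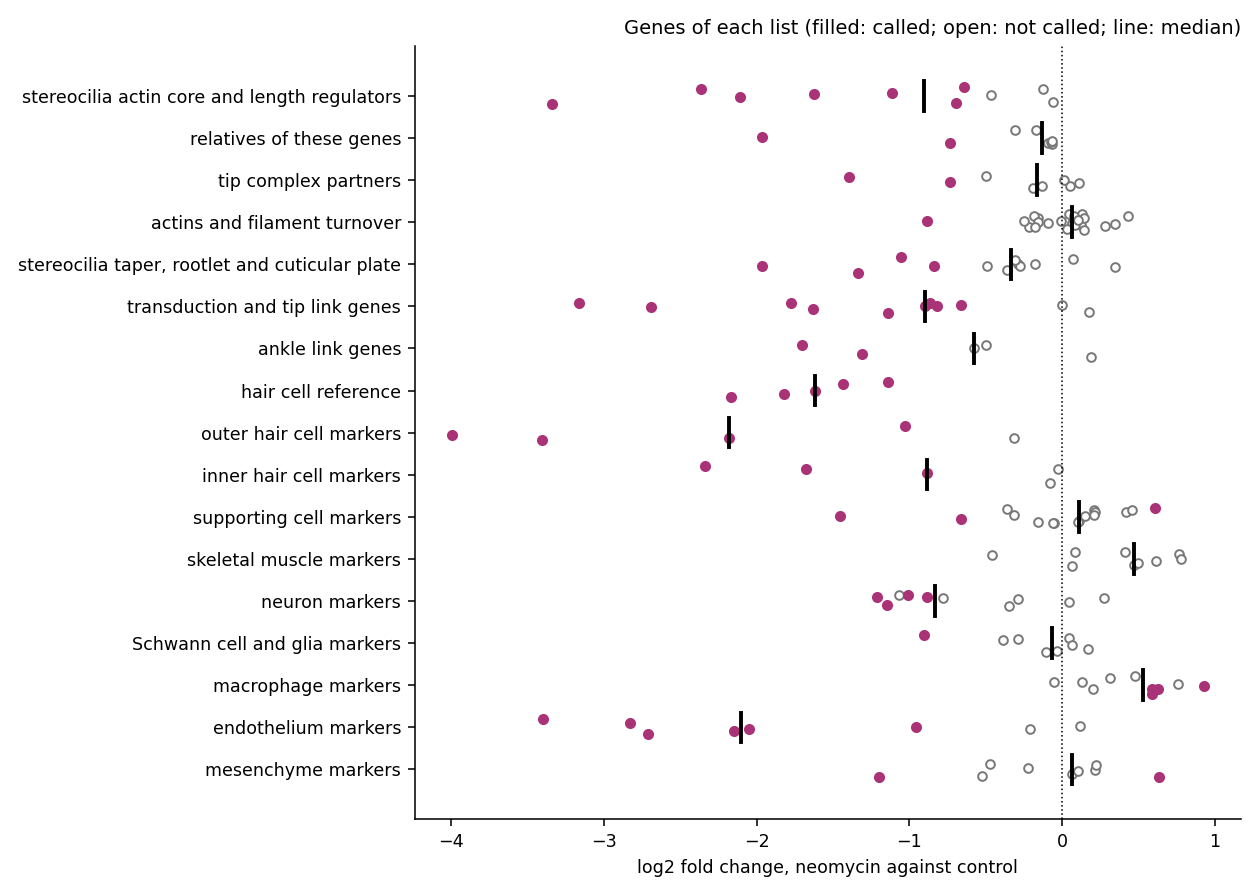
Log2 fold change, neomycin against control (x axis), of every tested gene in each list (rows), with called genes filled, other genes open and the median of each list as a line. The 10 stereocilia genes spread from -3.34 to -0.06 around a median of -0.90, and the 23 genes for actins and filament turnover center on 0.07. The median over all tested genes was -0.00.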

How the data were processed

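RNA-seq was analysed for 3 control and 3 neomycin samples. Per the labels and the methods of the study, the authors called bases with CASAVA 1.8, trimmed with Trimmomatic 0.23, aligned to mm10 with HISAT2 and counted with HTSeq, and they deposited raw counts per gene symbol without normalization. The strand setting, the handling of reads with several matches and the annotation release are not given in the sources used here, so reads of overlapping or near-identical genes may be shared. Counts were scaled with TMM, filtered with filterByExpr and tested with the quasi-likelihood test of edgeR 4.0.16 (R 4.3.3), with Benjamini-Hochberg adjustment over 15988 genes. Genes with an adjusted p-value under 0.05 that changed over 1.5-fold were called. The 95% intervals of levels come from the same fit. Levels are CPM with TMM scaling. Ratios within samples used log2 CPM with a prior count of 2 and an exact permutation test in scipy 1.17.1. Total counts per sample were 50471116 to 66068108. Positions, exon lengths and overlaps come from GENCODE vM21 (GRCm38, the build named mm10), and promoter sequences from RefSeq.

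Named were all 10 genes, their relatives, the HC reference genes, in each other list the 2 lowest and the 2 highest log2 fold changes, and the 5 genes nearest in profile with a mean of at least 1 CPM; not all of these are printed, and 1 ankle link result is not reported here. The 10 genes, their relatives, the HC reference genes and all other lists were chosen with earlier results of these data known. Alternatives were DESeq2 1.42.0, limma-voom (limma 3.58.1), other scalings, filters and thresholds, a replicate block, an offset for exon length (lowess, span 0.3, lengths for 99.2% of genes), each sample left out, each reference gene alone, and a prior count of 0.5. The code was tested on simulated data. Figures were drawn with matplotlib 3.10.9.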

Additional observations from a re-analysis of the deposited data

How the results depend on the processing

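The calls of Espnl, Fscn2, Myo15, Myo3a and Grxcr1 held under all alternatives run that tested them. With CPM above 1 required in 3 samples, Myo3a was not tested. Without a fold threshold 2571 genes were lower and 2058 higher, and Eps8l2 was then called at -0.47. At a 2-fold threshold 565 genes were lower and 121 higher, and Espn (-0.70) and Xirp2 (-0.64) lost the call. With the exon length offset 227 genes were called higher, Espn (-0.56) and Xirp2 (-0.44) fell short of 1.5-fold, and Eps8 turned to 0.16. With the offset and the replicate block together the values were 227 genes, -0.56, -0.43 and 0.16. Scaling by library totals gave 233 higher calls and made 84.3% of all calls lower, against 74.7% with TMM. Leaving out each sample in turn gave 800 to 1159 genes called lower, 237 (without control 2) to 513 higher, and 6 to 7 of the 10 stereocilia genes called lower. Espn ranged from -0.77 to -0.62, Xirp2 from -0.73 to -0.57, Eps8 from -0.13 to 0.06 (0.0554 without control 2), and Eps8l2 from -0.52 to -0.42. The difference of Pls1 against Pls3 ranged from -0.0843 to 0.0217 (without neomycin 2), and that of Grxcr1 against the reference from -0.13 to 0.239. Against the reference genes, Espnl turned to 0.12 with Pou4f3 alone, and Grxcr1 to -0.21 with Lhx3 alone, -0.50 with Myo7a alone, -0.02 without control 1, -0.13 without neomycin 2 and -0.01 without neomycin 3. The cause of these shifts was not tested.

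Whether the replicate numbers pair the samples is not known. The deviations of same-numbered samples correlated weakly, at 0.165, 0.0264 and 0.0949, but 5 of 6 samples correlated best with their own number. The replicate block gave 1089 genes called lower and 376 higher and left the calls of the 10 genes as they were. Depth limits Myo3a most, with 4 to 8 reads per neomycin sample, and 3 samples a group limit the exact tests to p = 0.1.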

Other observations

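Over the 7 called stereocilia genes, the mean log2 level relative to control was -1.48, -1.67 and -1.85 in neomycin replicates 1, 2 and 3. Among 14027 candidate genes with a mean of at least 1 CPM, the 5 whose 6 values lay nearest to this mean profile by Euclidean distance were Wee2 (distance 0.221), for an oocyte-type Wee1 kinase, Tomt (0.230), for a transmembrane O-methyltransferase needed for transduction in HCs, Adgrv1 (0.248), for the ankle link receptor, Trim36 (0.252), for a ubiquitin ligase, and Lhfpl5 (0.317), for a subunit of the transduction complex. Their log2 fold changes were -1.75 for Wee2, -1.68 for Tomt, -1.70 for Adgrv1, -1.71 for Trim36 and -1.77 for Lhfpl5. The likeness was measured over 6 samples of the same 2 groups and carries no test.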
